A study of Mus musculus with 16 samples.

Results

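The early growth response (Egr) family holds the zinc finger transcription factors Egr1, Egr2, Egr3 and Egr4, which were followed here across genotype and feeding state in mouse hypothalamus. Its members were every probe annotated with those 4 symbols, which came to 4 probes, 1 per gene, among the 25697 probes of an Illumina bead array. All 4 were among the 13662 probes kept by a filter on low values. The family was chosen with fasting results of these arrays known. Its fasting differences, and its genotype differences in fasted mice, are therefore given as a description.

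Total hypothalamic RNA of male mice of mixed strain background was hybridised to 16 arrays in 4 groups of 4. The groups were AgRP-/- mice fasted for 30 h, AgRP-/- mice fed ad libitum, AgRP+/- mice fasted for 30 h and AgRP+/- mice fed ad libitum. AgRP is agouti-related peptide, a signal released by hypothalamic neurons that drive feeding. The AgRP+/- mice, which serve as controls, also carry a disrupted allele, no wild-type group was analysed here, and the sources used here give neither the age of the mice nor whether arrays came from different animals. In bulk tissue, fewer cells of a type and less RNA per cell cannot be told apart.

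Egr genes are immediate early genes, transcribed within minutes when a neuron is stimulated. Calcium and ERK kinase signals reach them through serum response factor with its ternary complex partners and through the cAMP response element binding protein. The proteins bind GC-rich sites in later-responding genes, and the corepressors Nab1 and Nab2 limit the activity of Egr1, Egr2 and Egr3. In the brain Egr1 is widely used to read out recent neuronal activity.

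The upstream sequence of Egr4 is shown because Egr4, with Egr1, stood apart in the fasted AgRP-/- arrays. RefSeq (GRCm38.p6) gave 1 promoter window for Egr4 and 5 for Egr2. The 250 bases before the Egr4 start lie at chr6:85513590-85513839 on the minus strand, and capitals mark the core of the cAMP response element, TGACG, which reads CGTCA on the other strand.
Egr4: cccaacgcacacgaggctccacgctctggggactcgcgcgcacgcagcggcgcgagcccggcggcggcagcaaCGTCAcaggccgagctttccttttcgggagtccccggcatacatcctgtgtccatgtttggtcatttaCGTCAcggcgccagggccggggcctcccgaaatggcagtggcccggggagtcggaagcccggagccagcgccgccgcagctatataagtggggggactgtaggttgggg
Both copies are on that other strand, and the one nearer the start ends 105 bases before it. This core, searched on both strands, occurs in 17.8% of 32851 mouse windows of the same length, and the CArG box, the element bound by serum response factor, in 1.47%. The Egr4 window held no match to the CArG box. For contrast, a stretch of 30 bases from 76 to 47 bases before an Egr2 start, at chr10:67537793-67537822 on the plus strand, holds both elements, here with the CArG box and the core in capitals.
Egr2: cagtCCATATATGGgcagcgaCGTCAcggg
Of the 5 Egr2 windows, which belong to nearby starts and in part overlap, 4 held a CArG box and 3 the core, while 0.17% of all windows held both. These matches describe letters in the windows and do not show that a factor was bound.

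Values are log2 intensities as deposited, in which a difference of 1 is a doubling, and a probe's level is not set against that of another probe. Differences come from a linear model over all 16 arrays, fitted with limma on the kept probes, with p adjusted by the Benjamini-Hochberg method over those probes and a call at an adjusted p under 0.05. The median of all deposited values, 5.125, serves as a mark for low signal. Of 14 hypothalamic neuron markers 13 were kept, and the mean of the list lay between 11.21 and 11.33 in the 4 groups, so markers of the labelled tissue were present. Arrays were marked for pituitary transcripts where the hormone genes Gh and Prl both read above the low-signal mark. These were 1 AgRP-/- fed array (replicate 1, Gh 6.14 and Prl 5.17) and 1 AgRP+/- fed array (replicate 2, Gh 7.78 and Prl 7.34). On the AgRP-/- fed array Prl lay close to the mark. Of 7 listed pituitary markers 2 passed the filter, and neither was called in any contrast. Their mean was 6.91 ± 0.55 in fasted and 6.59 ± 0.40 in fed AgRP-/- mice (SD, n = 4 each). In AgRP+/- mice it was 6.26 ± 0.16 fasted and 6.53 ± 0.27 fed. Between fasted genotypes the 2 differed by 0.091 and 1.21. The mark by Gh and Prl thus does not cover every pituitary transcript.

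Egr1 read 10.6, 10.56, 10.76 and 10.59 in fasted AgRP-/- mice, against 11.47, 11.31, 11.44 and 11.18 in fed AgRP-/- mice. It read 11.27, 11.18, 11.5 and 11.79 in fasted AgRP+/- mice, against 11.41, 11.37, 11.9 and 11.44 in fed AgRP+/- mice. Every fasted AgRP-/- array lay below each of the 12 other arrays, and the other 3 groups overlapped. Egr1 averaged 10.63 ± 0.089 in fasted AgRP-/-, 11.35 ± 0.13 in fed AgRP-/-, 11.43 ± 0.27 in fasted AgRP+/- and 11.53 ± 0.24 in fed AgRP+/- mice (SD, n = 4 each). The groups of AgRP+/- and fed AgRP-/- mice, neighbours in that order, differed by less than their spread.

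Egr1 signal in AgRP-/- mice was 1.65 times lower in fasted than in fed animals (log2 difference -0.72, SE 0.12, 95% interval -0.97 to -0.47). In AgRP+/- mice the difference of fasted minus fed was -0.10, with an interval of -0.35 to 0.15. The interval in AgRP+/- mice did not reach the size seen in AgRP-/- mice, but the direct comparison of these differences, given further on, was not called.

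Egr4, like Egr1 induced by neuronal activity, also had its lowest mean in fasted AgRP-/- and its highest in fed AgRP+/- mice. It read 6.11, 5.95, 6.62 and 6.3 in fasted AgRP-/- mice, against 6.97, 7.29, 7.25 and 6.99 in fed AgRP-/- mice. It read 7.03, 6.84, 7.4 and 7.12 in fasted AgRP+/- mice, against 7.03, 6.82, 7.69 and 7.65 in fed AgRP+/- mice. As with Egr1, the 4 fasted AgRP-/- arrays were below all others, and the other groups overlapped. Means were 6.24 ± 0.29 in fasted AgRP-/-, 7.12 ± 0.17 in fed AgRP-/-, 7.10 ± 0.24 in fasted AgRP+/- and 7.30 ± 0.44 in fed AgRP+/- mice (SD, n = 4 each).

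Egr4 signal was 1.84 times lower in fasted than in fed AgRP-/- mice (log2 difference -0.88, SE 0.19, interval -1.27 to -0.49). In AgRP+/- mice fasted minus fed was -0.20, with an interval of -0.59 to 0.19. Among the 13662 kept probes, fasted AgRP-/- arrays were below all 12 others for 37, or 0.271%, which held Egr1, Egr4 and, from the gene lists described further on, Fosb, whose values lay near the low-signal mark.

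**Figure D1:**
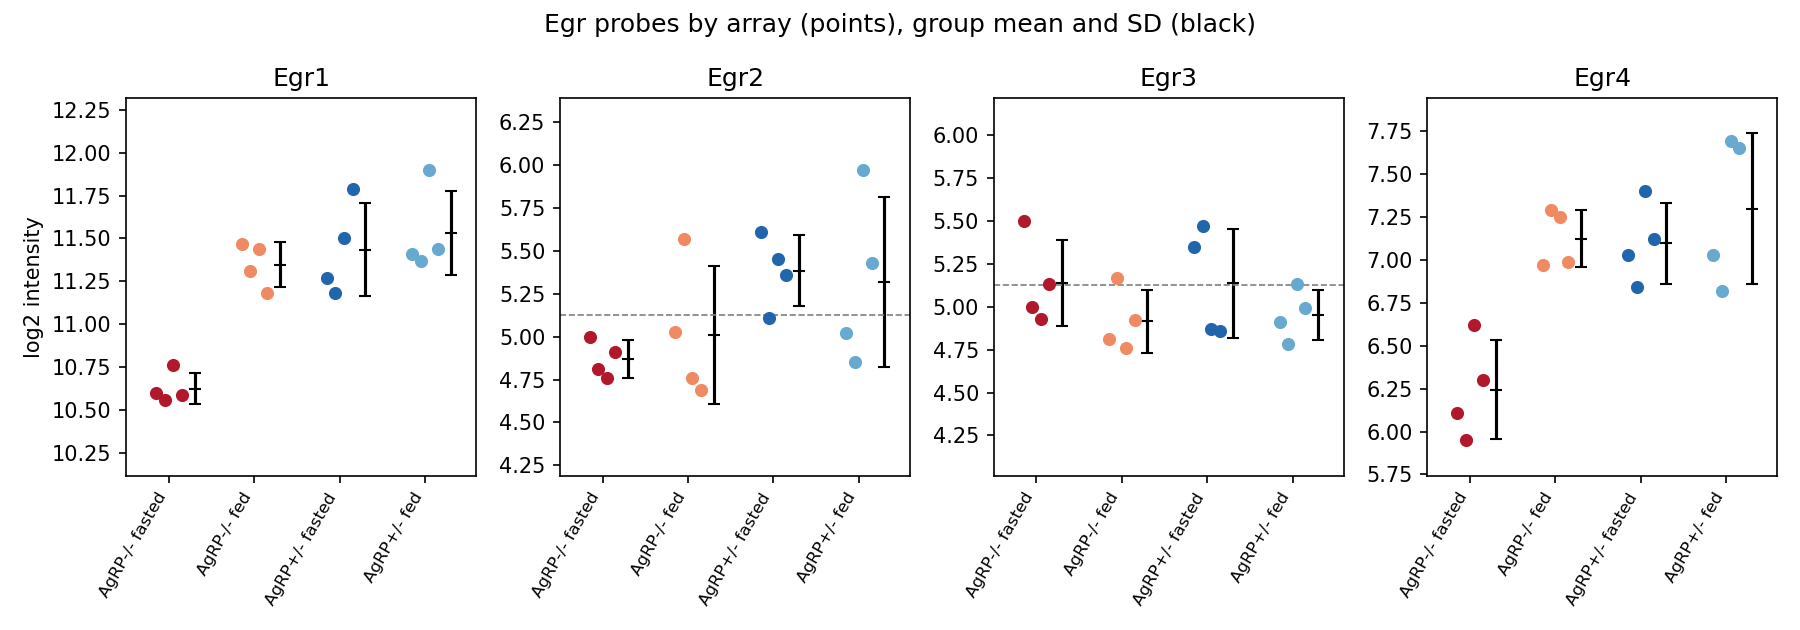
Log2 intensity of Egr1, Egr2, Egr3 and Egr4 on each array (points) with the group mean and SD (n = 4), by genotype and feeding, on a separate axis for each gene. The dashed grey line is the median of all deposited values, 5.125. Fasted AgRP-/- arrays lie below all others for Egr1 and Egr4, while Egr2 and Egr3 lie near the dashed line.

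Egr2, known for its part in myelination and hindbrain patterning, had low signal in all groups. It read 5, 4.81, 4.76 and 4.91 in fasted AgRP-/- mice, against 5.03, 5.57, 4.76 and 4.69 in fed AgRP-/- mice. It read 5.61, 5.11, 5.45 and 5.36 in fasted AgRP+/- mice, against 5.02, 4.85, 5.97 and 5.43 in fed AgRP+/- mice. Fasted and fed arrays overlapped in each genotype, and all 4 fasted AgRP-/- arrays were below the fasted AgRP+/- arrays. Fasted minus fed was -0.14 in AgRP-/- mice (interval -0.60 to 0.32) and 0.067 in AgRP+/- mice (interval -0.39 to 0.53).

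Egr3, which acts in muscle spindle formation and in synaptic plasticity, was also near the low end of the scale. It read 5.5, 5, 4.93 and 5.13 in fasted AgRP-/- mice, against 4.81, 5.17, 4.76 and 4.92 in fed AgRP-/- mice. It read 5.35, 5.47, 4.87 and 4.86 in fasted AgRP+/- mice, against 4.91, 4.78, 5.13 and 4.99 in fed AgRP+/- mice. The groups overlapped in every comparison. Fasted minus fed was 0.22 in AgRP-/- mice (interval -0.14 to 0.58) and 0.19 in AgRP+/- mice (interval -0.17 to 0.55), on the other side of 0 from Egr1 and Egr4. Because Egr2 and Egr3 read near the median of all probes, their signal cannot be separated here from background, and a difference in their transcripts may not be measurable on these arrays.

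In AgRP-/- mice the fasting contrast called 2 of the 4 members, Egr1 and Egr4, both lower, where 0.117% of all kept probes were called lower and 0.388% in either direction. Their fasted and fed arrays did not overlap, as was true in that direction for 4.16% of kept probes. In AgRP+/- mice 0 of 4 members were called, against 0.754% of kept probes in either direction. Averaged over the genotypes the fasting difference was -0.41 for Egr1 (SE 0.085), -0.54 for Egr4 (SE 0.13), -0.036 for Egr2 and 0.20 for Egr3. In the average Egr1 and Egr4 were again called lower, where 1.95% of kept probes were called lower and 4.19% in either direction. The family was chosen with these fasting values known, so the counts only restate them and nothing is read from their size beside the shares of all probes.

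The Egr4 fasting call in AgRP-/- mice was lost when any of AgRP-/- fasted replicates 1, 2 and 4 or any AgRP-/- fed replicate was left out, at values of -0.93 to -0.78. For the average it was lost on leaving out any of 7 arrays, at values of -0.52 to -0.48. Those arrays were replicates 1 and 2 of fasted AgRP-/-, replicates 2 and 3 of fed AgRP-/-, replicate 2 of fasted AgRP+/-, and replicates 3 and 4 of fed AgRP+/- mice. Without the filter, and without the intensity trend, the AgRP-/- call was lost at an unchanged value. It was also lost with a covariate for dopamine neuron transcripts (-0.65) and with one for the Actb probes (-0.89), described further on, which likewise ended the call of the average (-0.35 and -0.55).

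**Figure D2:**
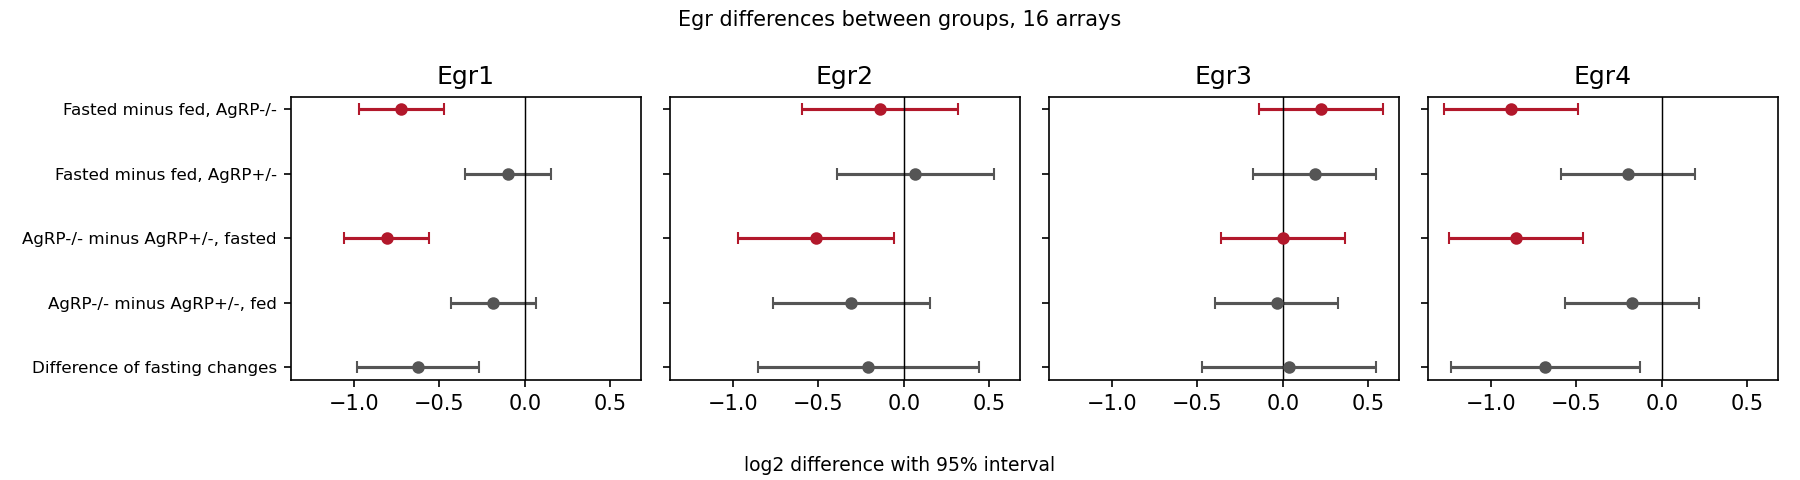
Log2 differences with 95% intervals from the limma model for the 4 Egr genes in 5 contrasts of 16 arrays. Red marks the contrasts that set fasted AgRP-/- mice against 1 other group, grey the rest. For Egr1 and Egr4 the intervals of both red contrasts lie wholly below 0, and for Egr3 all intervals include 0.

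The comparison of genotypes asks whether Egr transcripts depend on AgRP within a feeding state. In fasted mice it uses the same AgRP-/- arrays as the fasting contrast, so a low value on those 4 arrays enters both. Since the family was chosen with those readings known, its fasted genotype values, p-values and calls are a description as well. In fasted mice Egr1 was 1.75 times lower in AgRP-/- than in AgRP+/- animals (log2 difference -0.81, SE 0.12, interval -1.06 to -0.56, limma adjusted p = 0.0121). It was 1 of only 2 probes called, 0.0146% of those kept, the other being a probe with no gene symbol. The call was lost when AgRP-/- fasted replicate 1, 2 or 4 was left out (adjusted p = 0.0732, 0.0783 and 0.068, with differences of -0.80, -0.79 and -0.80). It was also lost without the model's intensity trend, at the same difference (adjusted p = 0.132), and with a covariate for dopamine neuron transcripts (-0.68, adjusted p = 0.0931).

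The fasted genotype difference of Egr4 was as large, -0.85 (SE 0.19, interval -1.24 to -0.46), and was not called (limma adjusted p = 0.259). Only 0.0805% of kept probes had a lower value in this contrast. Egr2 differed by -0.51 (SE 0.22, interval -0.97 to -0.056, limma adjusted p = 0.69) and Egr3 by 0.0012 (interval -0.36 to 0.36). Fasted AgRP-/- arrays lay wholly below fasted AgRP+/- arrays for 3 of the 4 members, Egr1, Egr2 and Egr4, where 2.39% of kept probes did so. Egr2 passed the filter mainly through AgRP+/- arrays, with 5 of 8 of them above the low-signal mark and 1 of 8 AgRP-/- arrays, so its separation is near background and gives no support to the count.

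In fed mice 0 of 4 members were called between genotypes, beside 0.00732% of kept probes. AgRP-/- minus AgRP+/- was -0.18 for Egr1 (interval -0.43 to 0.067, limma adjusted p = 0.999), -0.17 for Egr4 (interval -0.56 to 0.22), -0.31 for Egr2 (interval -0.77 to 0.15) and -0.036 for Egr3. The arrays of the genotypes overlapped for all 4, where 1.19% of kept probes had AgRP-/- arrays wholly below AgRP+/- arrays.

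Whether the fasting difference depended on genotype was examined as the AgRP-/- fasting difference minus the AgRP+/- one. This contrast is built from the fasting values known when the family was chosen. Its estimates, p-values and ranks for the members are therefore a description too. The contrast was -0.62 for Egr1 (SE 0.17, interval -0.98 to -0.27) and -0.68 for Egr4 (SE 0.26, interval -1.23 to -0.13). Egr1 ranked 4 among all kept probes by p, and neither gene passed after adjustment (limma adjusted p = 0.999 for each). No probe was called (0 of 13662), and 371 (2.72%) had an unadjusted p under 0.05, Egr1 and Egr4 among them. Thus the data place Egr1 and Egr4 lowest in fasted AgRP-/- mice, and a genotype dependence of the fasting difference was not called.

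Egr1 and Egr4 also varied together within groups. Deviations from the group means correlated at r = 0.56 between Egr1 and Egr4, 0.44 between Egr1 and Egr2, 0.60 between Egr2 and Egr4, and -0.37 between Egr1 and Egr3, over 16 arrays that share their processing, as a description. AgRP+/- fed replicate 3 gave the highest reading of its group for all 4 members. Of 9529 other genes, 179 followed Egr1 more closely than Egr4 did, so the likeness of the pair was not among the closest on the array. The 5 genes most like Egr1 by this measure were Hspa1a (0.88), Amz2 (0.81), Bub1b (0.80), Spag16 (0.80) and Fbxo30 (0.78). For Egr4 they were H4c11 (0.92), Rpl19 (0.90), Gtf3a (0.87), Gzmm (0.87) and Supt4a (0.86).

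**Figure D3:**
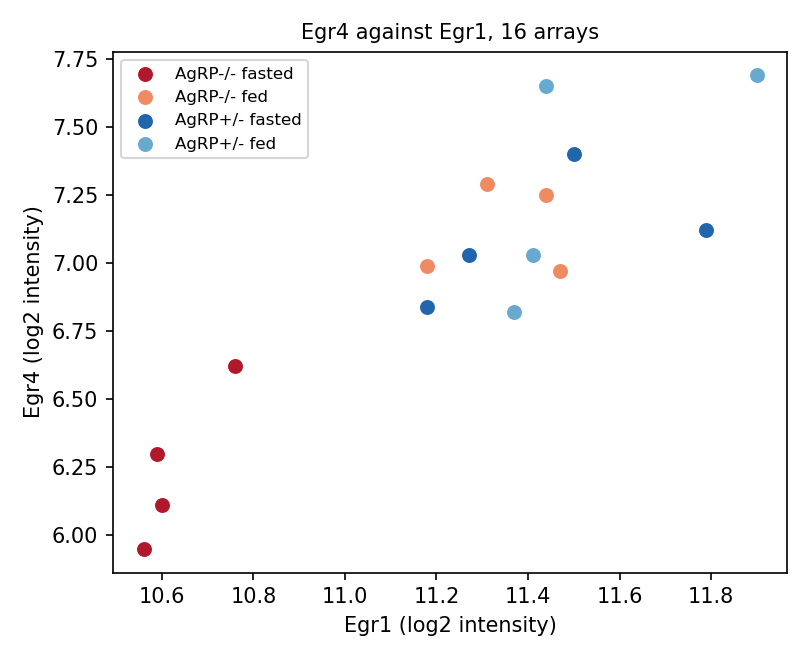
Egr4 against Egr1 log2 intensity on the 16 arrays, coloured by genotype and feeding. The 4 fasted AgRP-/- arrays form a separate cluster at the lower left, and the other 3 groups are mixed.

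The genes around the family were grouped by role. The corepressors Nab1 and Nab2 were both kept and neither was called in any contrast. In the averaged fasting contrast Nab1 differed by 0.012 and Nab2 by -0.31 (limma adjusted p = 0.177). Between genotypes in fasted mice Nab1 differed by -0.070 and Nab2 by -0.0091, beside -0.81 for Egr1 and -0.85 for Egr4. Of 20 upstream regulators 8 were kept and 0 were called in any contrast. Serum response factor, Srf, differed by -0.19 (limma adjusted p = 0.0688) and Map2k1, the kinase that activates ERK, by -0.49 (limma adjusted p = 0.0599) on average with fasting, and Atf1, a relative of the cAMP response element binding protein, by -0.18. The upstream list had a median fasted genotype difference of -0.042 with 6 of 8 below 0, beside a median of -0.0072 and 52.0% below 0 over all kept probes.

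Of 20 reported Egr targets 15 were kept. Their median fasted genotype difference was -0.024, with 10 of 15 below 0, and 0 were called there. Between fed genotypes the median was -0.033, with 9 of 15 below 0. In the averaged fasting contrast, where 2.23% of kept probes were called higher, 1 target was called, Th, tyrosine hydroxylase, which rose by 0.64 (limma adjusted p = 0.0175) and is also a marker of dopamine neurons. Sphk1, a sphingosine kinase, differed by 0.48 (limma adjusted p = 0.653). Arc, which encodes a synaptic protein and is a reported Egr target, followed genotype in both feeding states. It read 6.34, 6.26, 6.5 and 6.58 in fasted AgRP-/- mice, against 6.96, 6.81, 6.9 and 7.11 in fasted AgRP+/- mice. In fed mice it read 6.39, 6.49, 6.33 and 6.54 in AgRP-/-, against 6.98, 6.81, 6.84 and 7.17 in AgRP+/- animals. All 8 AgRP-/- arrays were below all 8 AgRP+/- arrays, as for 0.0586% of kept probes, whereas Egr1 and Egr4 overlapped between genotypes in fed mice. The Arc difference was -0.53 in fasted mice (limma adjusted p = 0.259) and -0.52 in fed mice (limma adjusted p = 0.689), neither of them called.

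Of 24 immediate early genes that encode transcription or RNA-turnover regulators, 13 were kept. With fasting averaged over genotypes 1 was called, Fos, a subunit of the AP-1 factor, which fell by 0.61 on the log2 scale (limma adjusted p = 0.018). Zfp36, an mRNA decay factor, differed by 0.32 and Csrnp1 by 0.29, both uncalled. By genotype, fasted minus fed for Fos was -0.85 in AgRP-/- mice (interval -1.26 to -0.44, limma adjusted p = 0.0652). In AgRP+/- mice it was -0.36 (interval -0.77 to 0.050). Neither was called, nor was their difference of -0.49 (interval -1.07 to 0.089). Fos read 7.11, 7.59, 7.9 and 7.69 in fasted AgRP-/- mice, against 8.97, 8.22, 8.47 and 8.58 in fasted AgRP+/- mice. In fed mice it read 8.75, 8.27, 8.79 and 7.9 in AgRP-/-, against 8.93, 8.61, 9.1 and 9.05 in AgRP+/- animals. The fasted genotypes did not overlap, and the Fos difference was -0.99 (SE 0.20, limma adjusted p = 0.241). For the AP-1 subunits Fosb and Junb it was -0.69 and -0.60 (limma adjusted p = 0.529 for each), and for Npas4, a neuron-specific activity factor, -0.48 (limma adjusted p = 0.711). In this list 10 of 13 were below 0 between genotypes in fasted mice, with a median of -0.099, and 0 were called. The fed genotype difference was -0.50 for Fos (interval -0.91 to -0.086), -0.50 for Fosb and -0.48 for Npas4. For Egr1 it was -0.18 (interval -0.43 to 0.067), which overlaps the Fos interval. Between fed genotypes 8 of the 13 were below 0, with a median of -0.057, and 0 were called. Fosb, like Egr2, had low signal, with 1 of 8 AgRP-/- arrays and 6 of 8 AgRP+/- arrays above the mark of 5.125, so its difference cannot be separated from background on the AgRP-/- side. Arc, Fosb, Junb and Npas4 were singled out after their values were seen.

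Of 23 listed effectors 19 were kept, with 14 below 0 and a median of -0.14 between fasted genotypes, and 0 were called in any contrast. Over all kept probes 52.0% were below 0 between fasted genotypes. Between fed genotypes 12 of the 19 were below 0, with a median of -0.039, beside 50.2% of all kept probes. Vgf, a secreted neuropeptide precursor, differed by 0.26 on average with fasting (limma adjusted p = 0.0984), Pim1, a kinase, by -0.27 and Inhba, an activin subunit, by 0.20. The brakes on ERK signalling, 6 kept of 10, were all 6 below 0 between fasted genotypes with a median of -0.21, and 0 were called. Between fed genotypes 5 of the 6 were below 0, with a median of -0.15, so this direction was not particular to fasted mice. Dusp4 and Dusp6 are in the target, effector and brake lists, so these lists are not independent of each other. In the averaged fasting contrast Rasa1, a Ras GTPase activator, differed by -0.19, Spry4 by 0.056 and Dusp7, an ERK phosphatase, by 0.043. Related zinc finger factors, 6 kept of 9, ran the other way between fasted genotypes, with 1 of 6 below 0 and a median of 0.19. Klf13 was called in the averaged fasting contrast, where it rose by 0.55 (limma adjusted p = 0.00695), while Klf9 differed by 0.23 and Sp4 by -0.22.

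Over all role lists, 61 genes were kept. Fasted AgRP-/- arrays lay wholly below fasted AgRP+/- arrays for 6 of them (Arc, Crem, Dusp4, Fos, Fosb and Junb) and wholly above for 0, where 2.39% of kept probes lay wholly below. Fosb had most of its AgRP-/- arrays under the low-signal mark, and Dusp4 had 5 of 8 AgRP-/- arrays and 6 of 8 AgRP+/- arrays above it. Since such genes can pass the filter through the group where they are high, the count is a description. For Crem and Dusp4 fasted minus fed was 0.48 and 0.32 in AgRP+/- mice, and -0.12 and -0.29 in AgRP-/- mice. Between fed genotypes they differed by 0.16 and 0.22, on the other side of 0 from Fos. None of these values was called. In fed mice the genotypes separated in the lower direction for 3 of the 61, Arc, Fosb and Nptx2, beside 1.19% of kept probes. They separated in the higher direction for 1 of the 61. The shares of kept probes lying wholly above are not given here.

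**Figure D4:**
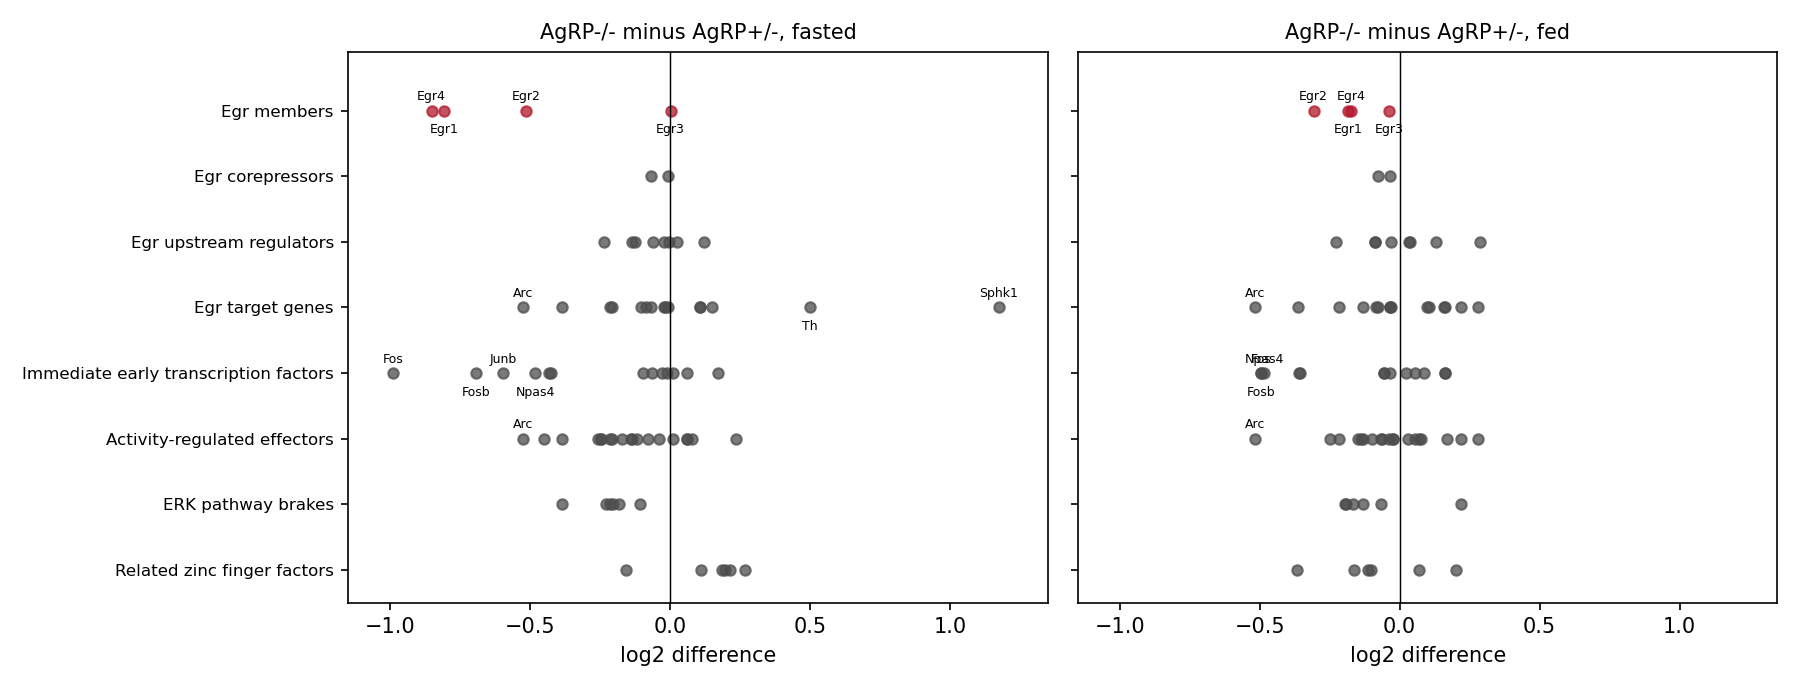
Log2 differences of AgRP-/- minus AgRP+/- in fasted mice (left) and fed mice (right) for the Egr members (red) and the kept genes of each role list (grey), with genes named beyond a set size. Egr1 and Egr4 lie near -0.8 in fasted mice with Fos at -0.99, and in fed mice no Egr member lies beyond -0.31.

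Markers of midbrain dopamine neurons, cells that border the hypothalamus, moved with fasting. Of 9 such markers 8 were kept, all 8 were above 0 in the averaged fasting contrast with a median of 0.65, and 5 were called higher. The list mean ranged from 6.98 to 7.17 in fasted AgRP-/-, 5.73 to 6.52 in fed AgRP-/-, 6.19 to 7.19 in fasted AgRP+/- and 6 to 6.41 in fed AgRP+/- mice. The mean of 3 defining markers, Slc6a3, Chrna6 and Th, was 8.82 ± 0.24 in fasted AgRP-/-, 7.56 ± 0.69 in fed AgRP-/-, 8.18 ± 0.75 in fasted AgRP+/- and 7.33 ± 0.41 in fed AgRP+/- mice (SD, n = 4 each). It was 8.94, 8.78, 8.50 and 9.06 on the fasted AgRP-/- arrays, where Egr1 read 10.56 to 10.76. On the fasted AgRP+/- arrays it was 8.81, 8.68, 8.04 and 7.17, and Egr1 read 11.27, 11.18, 11.5 and 11.79. Of these, replicates 1 and 2 fell within the marker range of the fasted AgRP-/- arrays, with Egr1 at 11.27 and 11.18. Within fasted AgRP+/- mice the same arrays had the lowest Egr1 values, and Egr1 was higher on replicates 3 and 4, with less marker signal. This order did not hold throughout the other groups. In fed AgRP-/- mice the array with the least marker signal (replicate 2, 6.53) read 11.31 for Egr1, below replicates 1 and 3. In fed AgRP+/- mice the array with the least (replicate 3, 6.98) had the highest Egr1, 11.9. With the mean of the 3 markers as a covariate the fasting difference of Egr1 in AgRP-/- mice was -0.47 and was not called. Its averaged fasting difference was -0.20 and that of Fos -0.65, both uncalled.

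The difference between probes of Actb, which can follow RNA integrity, averaged -4.59 in fasted AgRP-/-, -5.35 in fed AgRP-/-, -4.95 in fasted AgRP+/- and -5.83 in fed AgRP+/- mice. With it as a covariate Egr1 kept its fasted genotype call (limma adjusted p = 0.0328). The call was also kept without the arrays marked for pituitary transcripts by Gh and Prl (limma adjusted p = 0.0246). With the Actb covariate the averaged fasting differences of Egr1, Fos and Th were -0.41, -0.29 and 0.56, all uncalled. Beyond these values, the part of dopamine neuron transcripts, pituitary transcripts or RNA integrity in the Egr differences was not tested.

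**Figure D5:**
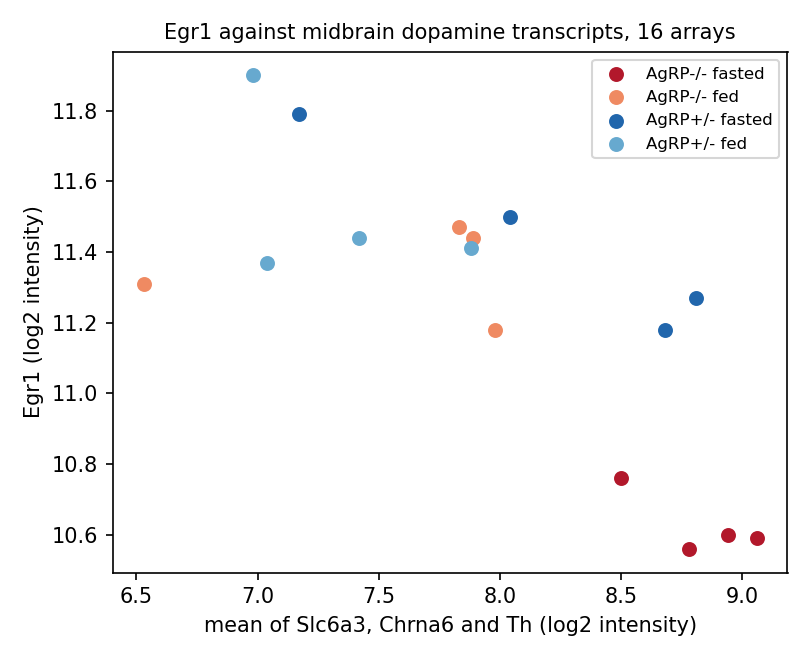
Egr1 log2 intensity against the mean log2 intensity of Slc6a3, Chrna6 and Th on the 16 arrays, coloured by genotype and feeding. Fasted AgRP-/- arrays lie at 8.50 to 9.06 on the marker axis with Egr1 at 10.56 to 10.76. AgRP+/- fasted replicates 1 and 2 lie in the same marker range with Egr1 at 11.27 and 11.18, and replicates 3 and 4 at 8.04 and 7.17 with Egr1 at 11.5 and 11.79.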

How the data were processed

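Hypothalamic RNA was profiled on 16 Illumina bead arrays as biotinylated cRNA, per the labels' protocols. The deposited table holds log2 intensity values with 1 column per array. How the authors normalized them is not stated in the sources used here, and the submitters' processing notes name limma without a version or role. Sorted columns differed by at most 0.0345, so a shift common to all transcripts would not be seen. Detection p-values, slides and scan batches were not used here, and precision is limited by the number of arrays. Probes were named from the platform annotation, which can be old, and gave 1 symbol for 23978 probes.

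Groups were taken from the sample titles. The filter retained probes above 5.125, the median over the whole table, on 4 or more arrays. A gene was represented by its kept probe with the highest mean. With limma 3.58.1 (R 4.3.3) a linear model with a coefficient for each group was fitted over the 16 arrays (empirical Bayes, intensity trend, 12 residual degrees of freedom). The code was tested on simulated data. It gave 6 contrasts. P-values measure the spread between these arrays, which may be technical.

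The members and the 19 gene lists (7 by role, 12 of cell type markers) were chosen with earlier results of these data known. Named from the role lists were every called gene and the 3 with the largest averaged fasting change, and the 5 genes most like Egr1 and Egr4. Alternatives changed the filter, trend, weights, normalization, samples fitted and block, and left out each array. Covariates for dopamine markers and for the Actb probes, and the fit without the arrays with pituitary transcripts, were chosen after seeing the data. Promoter sequences are from RefSeq (GRCm38.p6). The 4 symbols matched windows for Egr2 and Egr4, and motifs were searched in the 250 bases before each start.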

Additional observations from a re-analysis of the deposited data

Results flagged for a closer look

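The Egr1 values of fed AgRP+/- mice held 1 array far from the others. Replicate 3 read 11.9, while the other arrays of that group read 11.41, 11.37 and 11.44, and its gap to the nearest took 0.864 of the group's range. It was the only one of 16 gene and group combinations so marked, and chance marks about 1 in 20. The same array also had the highest Egr2, Egr3 and Egr4 value of its group.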

How the results depend on the processing

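Of 323 recomputed genotype and interaction values of the members, 303 kept their direction and their side of the threshold. Only Egr1 between fasted genotypes was called in the main fit. Most of the other values lay far from the threshold, so their staying uncalled says little. Of 323 recomputed fasting values, given as a description, 321 moved by less than the spread between replicates, which does not mean that calls were kept. The fasted genotype call of Egr1 was lost without the intensity trend (-0.81, adjusted p = 0.132), with the dopamine covariate (-0.68, adjusted p = 0.0931) and on leaving out AgRP-/- fasted replicate 1, 2 or 4. Over all left-out arrays the value ran from -0.89 to -0.69, with the call kept in 13 of 16. With the dopamine covariate Egr1 was -0.47 for fasting in AgRP-/- mice and -0.20 averaged. Egr3, never called, changed sign between fasted genotypes with array weights (-0.11), the dopamine covariate (-0.059), the Actb covariate (-0.052) and left-out arrays (-0.12 to 0.11). It did so between fed genotypes with left-out arrays (-0.12 to 0.022). Its interaction changed sign with array weights (-0.092), the dopamine covariate (-0.0013) and left-out arrays (-0.082 to 0.15). The cause was not tested.

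Called role genes for fasting in AgRP-/- mice numbered 0, against 3 with array weights, 1 with the compared groups alone, 2 with the replicate block, 1 with the Actb covariate and 0 to 2 with left-out arrays. Averaged, they numbered 3, against 5 with the replicate block, 1 with the dopamine covariate, 1 with the Actb covariate, 5 without the arrays with pituitary transcripts and 3 to 5 with left-out arrays. Replicate numbers did not pair the samples (24 same-number pairs, r from -0.187 to 0.299; 5 of 16 arrays correlated best with their own number). With the replicate block the fasted genotype difference of Egr4 had an adjusted p of 0.0544. The Egr4 fasting call held in 9 of 16 fits with a left-out array and 7 of 11 others in AgRP-/- mice, and in 9 of 16 and 8 of 10 for the average. For Egr1 it held in 16 of 16 and 11 of 12 in AgRP-/- mice, and in 16 of 16 and 9 of 11 for the average. A stricter filter dropped Egr2, Egr3 and Egr4, and the fit on the compared groups alone was not run for the average or the interaction. Low signal limits what Egr2 and Egr3 can show.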
